A study of Mus musculus with 8 samples.

Results

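A set of 8 genes was followed that undifferentiated spermatogonia express and that were far lower after retinoic acid (RA), without being classical markers of spermatogonial stem or progenitor cells. They were, of 5736 genes in the table analysed, *Scn10a*, *Rin2*, *Ifitm1*, *Nefm*, *Tmprss5*, *Ly6g6e*, *Lhfpl2* and *Ccdc141*. The genes were selected on the fall itself in these same libraries, so their levels and fold changes are given as a description and no p-value is given for them. How many of them passed the call rule is stated once, beside the share of all genes that did, and nothing is read from it. Adjusted p-values are given for other genes: relatives in the same families, neighbours on the chromosome, and markers of other cell types.

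The RNA came from germ cells sorted for EGFP from testes in which spermatogenesis had been synchronised, in mice of strain CD1:Uchl1-eGFP. All groups shared the transgene, whose EGFP is driven by the *Uchl1* promoter in a line first made to mark motor neurons, and all received the RA synthesis inhibitor bis-(dichloroacetyl)-diamine by mouth at 100 µg per g of body weight from postnatal day (P)1 to P10. The 3 groups were Aal, undifferentiated spermatogonia (2 libraries), A1, differentiating spermatogonia 24 h after one injection of RA (3 libraries), and A3, a later stage of differentiation after the same injection (3 libraries). RA was injected at P11 as 10 µl of a solution of 10 µg/µl, and the hour at which A3 cells were taken is not in the labels. Each preparation pooled the testes of at least 5 pups or 3 adults of a litter, and libraries came from independent cell preparations.

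Spermatogonia that still self-renew or wait to differentiate are called undifferentiated, and in the mouse testis RA, which acts through nuclear receptors, is the signal that commits them to differentiate. Commitment is followed by a fixed series of divisions that leads to meiosis. Several of the 8 genes are best known outside the testis, in sensory neurons, in axons or in cells that answer interferon, and most of their proteins sit in or at the plasma membrane.

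Library totals recovered from the values ran from 18276164 to 27316451 reads, and FPKM, reads scaled by gene length and library total, is the level used throughout. The median FPKM of all genes lay between 5.43 and 6.03 in every library. No value in the table was 0. The third A1 library stood apart from the other A1 libraries and from Aal in markers of other cell types. Its summed level of 12 Sertoli markers was 412 FPKM, against 60.6 and 63.0 in the other A1 libraries and 41.1 to 53.3 in Aal. The A3 libraries were also high on this list, at 215 to 400 FPKM. Without the third A1 library the log2 fold changes of the 8 genes in A1 against Aal ran from −2.76 to −1.98.

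RefSeq promoter windows, from 250 bases before to 50 bases after a start site (build GRCm38.p6), were found for 6 of the 8 genes. *Tmprss5* has 2 starts, so there were 7 windows. *Nefm* and *Ly6g6e* had no entry. Windows of 4 genes are printed because each holds a feature that the others lack, and capitals mark the motif matches found on either strand. The *Rin2* window (chr2:145785866-145786165, plus strand) has a core nuclear receptor motif, AGGTCA, read on the other strand, a CCAAT box and a pair of E-boxes, the letters CANNTG. The *Ifitm1* window (chr7:140967826-140968125, plus strand) has a forkhead site, GTAAACA. The window of the first *Tmprss5* start (chr9:49102478-49102777, plus strand) has an AP-1 site, TGANTCA, and the interferon response motif, a pair of GAAA blocks spaced by a pair of free bases, read on the other strand. The *Lhfpl2* window (chr13:94057546-94057845, plus strand) has 3 GC boxes, GGGCGG, all on the other strand.
Rin2: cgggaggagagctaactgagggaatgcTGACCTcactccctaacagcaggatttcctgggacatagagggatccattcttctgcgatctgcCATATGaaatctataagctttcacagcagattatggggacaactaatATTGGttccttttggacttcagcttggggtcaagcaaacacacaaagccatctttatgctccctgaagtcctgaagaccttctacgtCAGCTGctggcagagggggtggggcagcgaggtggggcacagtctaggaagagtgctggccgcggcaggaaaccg
Ifitm1: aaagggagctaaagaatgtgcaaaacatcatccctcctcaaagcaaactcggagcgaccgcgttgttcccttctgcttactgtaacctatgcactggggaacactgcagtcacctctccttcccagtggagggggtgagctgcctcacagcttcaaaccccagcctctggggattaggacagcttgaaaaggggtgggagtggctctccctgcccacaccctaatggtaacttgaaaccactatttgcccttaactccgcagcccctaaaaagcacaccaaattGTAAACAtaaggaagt
Tmprss5: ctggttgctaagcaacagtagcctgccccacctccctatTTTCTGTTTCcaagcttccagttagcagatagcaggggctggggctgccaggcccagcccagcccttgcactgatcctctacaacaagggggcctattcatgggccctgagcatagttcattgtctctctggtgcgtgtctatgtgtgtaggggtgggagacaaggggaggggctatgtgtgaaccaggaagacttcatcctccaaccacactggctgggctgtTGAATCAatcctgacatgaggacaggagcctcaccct
Lhfpl2: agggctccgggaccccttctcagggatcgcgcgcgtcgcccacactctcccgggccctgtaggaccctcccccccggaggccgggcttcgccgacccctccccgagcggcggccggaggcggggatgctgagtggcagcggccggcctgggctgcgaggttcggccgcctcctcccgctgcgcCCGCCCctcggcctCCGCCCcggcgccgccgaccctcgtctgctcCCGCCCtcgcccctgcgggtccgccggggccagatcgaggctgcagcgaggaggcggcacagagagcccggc

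Across all 32851 windows the nuclear receptor motif was present in 16.3%, the CCAAT box in 37.4%, an E-box in 72.3%, the forkhead site in 3.65%, the AP-1 site in 7.81%, the GC box in 35.7% and the interferon response motif in 3.44%. Among the 7 windows the nuclear receptor motif was found only in *Rin2*, and the interferon response motif was found in *Tmprss5* and not in *Ifitm1*, the gene named for its response to interferon. An E-box was found in 4 windows, those of *Ccdc141*, *Rin2*, *Scn10a* and the second *Tmprss5* start. The letters TATAAA (13.6% of all windows), the palindromic E-box CACGTG (7.15%), which is itself one of the CANNTG matches, and the STAT site TTCNNNGAA (8.30%) were found in 0 of the 7. CpG content set *Lhfpl2* apart, with 40 CpG dinucleotides in 300 bases, whereas the other windows had from 1 in *Tmprss5* to 11 in *Scn10a*, and the median of all windows was 7 with quartiles of 3 and 20. A match in such a window is a string of letters and does not show that a factor binds there.

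In undifferentiated cells the 8 genes spanned 9.60 to 38.1 FPKM, with *Rin2* the highest and *Tmprss5* the lowest by mean. *Rin2* had the highest mean in Aal, 38.1 ± 3.00 FPKM (SD, n = 2), followed by *Lhfpl2* at 29.2 ± 0.420, *Ccdc141* at 27.4 ± 0.389, *Ly6g6e* at 18.7 ± 0.312, *Nefm* at 14.3 ± 1.85, *Ifitm1* at 11.2 ± 1.60, *Scn10a* at 11.1 ± 4.09 and *Tmprss5* at 9.60 ± 1.29. The libraries of *Ifitm1*, *Scn10a* and *Tmprss5* overlapped one another in Aal, and the other neighbours in that order did not overlap. In A3 the order was *Rin2*, *Ccdc141*, *Lhfpl2*, *Nefm*, *Ly6g6e*, *Ifitm1*, *Scn10a* and *Tmprss5*, where the first 3 overlapped one another and the last 3, all under 1 FPKM, did so too.

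Every Aal library lay above every A1 and A3 library for all 8 genes, a separation that 23.4% of all 5736 genes shared and that the selection fixed here. All 8 passed the call rule in A1 against Aal, a limma Benjamini-Hochberg adjusted p of at most 0.01 with an absolute log2 fold change above 1, and so did 4.97% of the 4632 genes tested in that direction (4.19% were called higher). All 8 passed it in A3 against Aal as well, where 9.69% of 4687 genes were called lower and 7.87% higher. Nothing is read from these counts of the 8 genes, since the same contrasts chose them. Of the 7 that could be fitted in A3 against A1, limma called 0, beside 1.02% of 4590 genes called lower and 0.479% called higher. Voom on recovered reads called 1, *Tmprss5*, which entered that fit only through its A1 libraries. Over all genes voom called 145 lower and 54 higher there. By their values alone, *Tmprss5* and *Ly6g6e* were lower in every A3 than in every A1 library, *Nefm* was higher, and the A1 and A3 libraries of the other 5 genes overlapped.

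**Figure D1:**
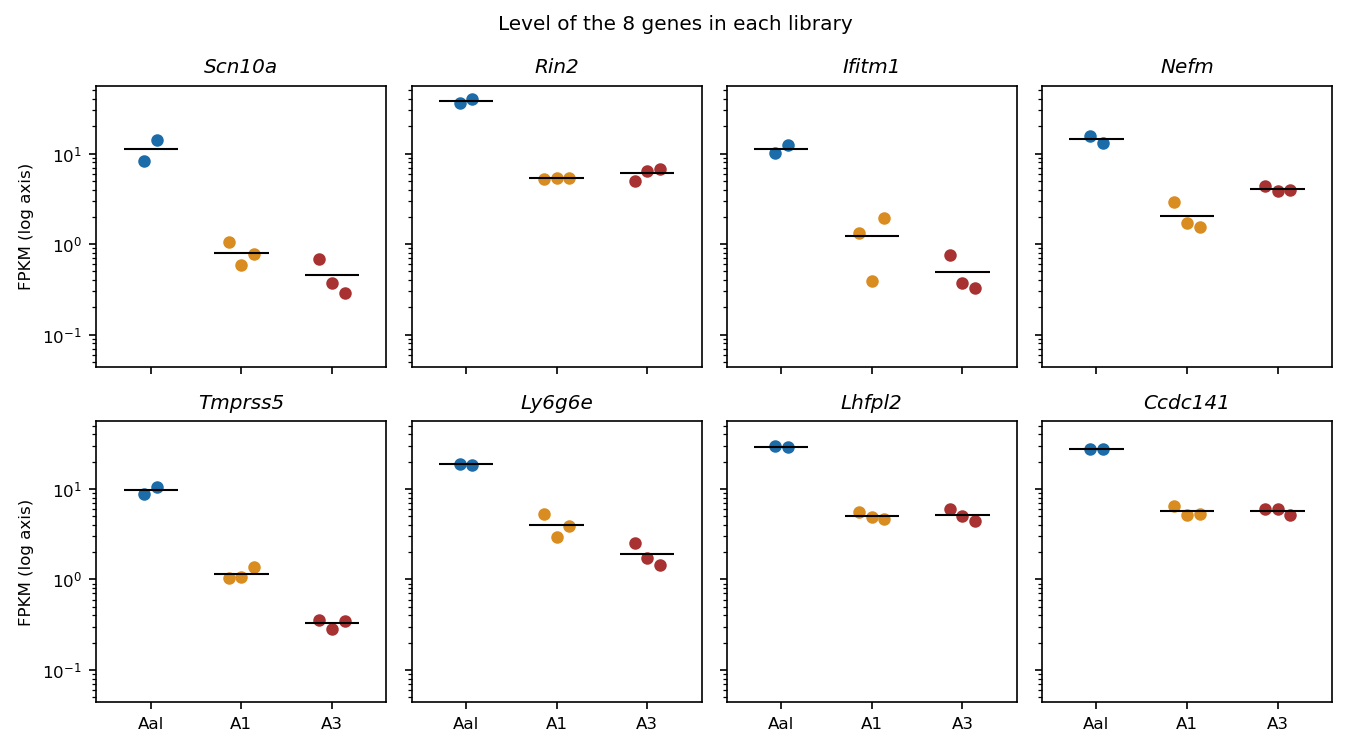
FPKM on a log axis of each of the 8 genes in the 2 Aal, 3 A1 and 3 A3 libraries. Points are libraries and black lines are group means. Every Aal point lies above every A1 and A3 point of the same gene. Tmprss5 and Ly6g6e step down again in A3, Rin2, Lhfpl2 and Ccdc141 stay level, and Nefm steps up.

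*Scn10a* encodes Nav1.8, a voltage-gated sodium channel best known from pain-sensing neurons. It lies on chromosome 9 at 119517584 to 119603478 (mm9, minus strand). Its level was 8.22 and 14.0 FPKM in the Aal libraries, 1.05, 0.582 and 0.784 in A1, and 0.691, 0.376 and 0.290 in A3. The Aal libraries were the high ones and differed from each other by 1.70-fold, the widest gap between Aal replicates among the 8 genes, while A1 and A3 overlapped. The Aal mean was 13.8 times the A1 mean and 24.6 times the A3 mean, and after log2(FPKM + 1), a scale that shrinks the change of genes at low levels, the fold changes were −2.71 (SE 0.23) and −3.03 (SE 0.22). In reads, 1274 and 2256 in Aal became 92 to 144 in A1 and 47 to 84 in A3. With under 1 FPKM in most A1 and A3 libraries, the gene did not enter the fit of A3 against A1. Its fall in A1 on this scale was the largest of any gene tested, but that rank rested on the second Aal library: without it the change was −2.36, smaller than that of *Rin2* (−2.55) in the same setting.

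*Tmprss5* encodes a serine protease anchored in the membrane, also called spinesin and known from the spinal cord. The gene occupies chromosome 9 from 48889365 to 48925692 (mm9, plus strand). It measured 8.69 and 10.5 FPKM in Aal, then 1.03, 1.07 and 1.36 in A1, then 0.360, 0.284 and 0.348 in A3. The 3 groups did not overlap, and each later stage was lower than the one before. The Aal mean was 8.32 times the A1 mean and the A1 mean was 3.49 times the A3 mean, with log2 fold changes of −2.30 (SE 0.14) in A1 against Aal and −0.69 (SE 0.12) in A3 against A1. The A3 values rest on 13 to 18 reads per library, against 430 and 541 in Aal. Its A3 level was 3.44% of the Aal level, the smallest share left among the 8 genes.

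*Ifitm1* encodes a small transmembrane protein that is induced by interferon, limits the entry of viruses into cells and is also known from primordial germ cells, the embryonic founders of the germ line. Its position is chromosome 7, 148153120 to 148155724 (mm9, plus strand). The Aal libraries had 10.1 and 12.4 FPKM, the A1 libraries 1.34, 0.392 and 1.95, and the A3 libraries 0.754, 0.373 and 0.330. Aal was high in both libraries, and the second A1 library fell inside the range of A3 while the third, the one rich in Sertoli markers, was the highest of A1. The log2 fold changes were −2.52 (SE 0.30) in A1 and −3.05 (SE 0.17) in A3 against Aal, and −0.53 (SE 0.27) in A3 against A1. *Ifitm1* entered the fit of A3 against A1 only through its A1 libraries. Without the third A1 library the change in A1 was −2.76. The gene is short, and the 6 later libraries held only 7 to 30 reads of it, against 205 and 261 in Aal.

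*Ly6g6e* encodes a small protein of the Ly6/uPAR family, most of whose members are tethered to the outer face of the membrane by a lipid anchor, and it lies in the major histocompatibility complex on chromosome 17 at 35213847 to 35215749 (mm9, plus strand). Its levels were 18.9 and 18.5 FPKM in the Aal libraries, 5.27, 2.96 and 3.85 in A1, then 2.55, 1.73 and 1.46 in A3. No group overlapped another. The share of the Aal level left was 21.6% in A1, the largest among the 8 genes at that stage, and 10.3% in A3, with log2 fold changes of −1.99 (SE 0.19) and −2.77 (SE 0.17). In A3 against A1 the change was −0.78 (SE 0.21). The gene overlaps *Ly6g6d* on the other strand, and since the use of strand in counting was not stated, reads of the pair cannot be told apart with certainty.

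*Rin2* encodes an exchange factor that binds Ras and activates Rab5 on early endosomes, the compartments that receive material taken in from the cell surface. In mm9 it is found on chromosome 2 at 145610470 to 145713352 (plus strand), and the annotation places a microRNA gene inside it. It had 35.9 and 40.2 FPKM in Aal, 5.24, 5.33 and 5.35 in A1, then 4.93, 6.42 and 6.82 in A3. The 3 A1 libraries were nearly equal and lay within the range of A3. Its log2 fold change was −2.63 (SE 0.09) in A1 against Aal and 0.15 (SE 0.12) in A3 against A1.

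*Lhfpl2* encodes a protein that crosses the membrane several times, from the LHFPL group within the wider family of claudins and PMP22. Its place is chromosome 13 at 94827751 to 94965364 (mm9, plus strand), overlapping the transcript Gm15907 on the other strand. The levels were 29.5 and 28.9 FPKM in Aal, 5.61, 4.83 and 4.67 in A1, then 6.06, 5.06 and 4.38 in A3. A1 and A3 covered almost the same range, well below Aal. The share of the Aal level left was 17.3% in A1 and 17.7% in A3, and the log2 fold change between these stages was 0.03 (SE 0.13).

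*Ccdc141* encodes a coiled-coil protein that binds DISC1 and is known from the migration of neurons. The gene is on chromosome 2 at 76847960 to 77008693 (mm9, minus strand). It measured 27.2 and 27.7 FPKM in Aal, 6.40, 5.17 and 5.32 in A1, then 6.00, 5.98 and 5.12 in A3. As with *Lhfpl2*, both later stages overlapped and lay far below Aal, at 20.5% and 20.8% of its level. The log2 fold change was −2.11 (SE 0.11) in A1 against Aal and 0.02 (SE 0.12) in A3 against A1. The 2 genes also had the most similar profiles of any pair of the 8 over the libraries, with a Pearson r of 0.998.

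*Nefm* encodes the medium chain of the neurofilaments, the intermediate filaments of axons. It lies on chromosome 14 at 68700647 to 68742903 (mm9, minus strand) in the annotation used, where it spans *Nefl*, the light chain, on the other strand. It measured 15.6 and 13.0 FPKM in Aal, 2.94, 1.70 and 1.54 in A1, then 4.33, 3.88 and 3.91 in A3. Every A3 library lay above every A1 library and below both Aal libraries. The A3 mean was 1.96 times the A1 mean, so that the share of the Aal level left went from 14.4% to 28.2%. The log2 fold changes were −2.34 (SE 0.21) in A1 against Aal and 0.75 (SE 0.18) in A3 against A1. *Nefm* had the lowest r in the group, 0.777 with *Ly6g6e*, over 8 libraries whose shared contrast of Aal with the rest lifts every one of the 28 pairs.

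A complete separation of A3 from A1 was present in 2 of the 8 genes downwards and in 1 upwards. Over all 5736 genes the same separations were found in 19.8% and 17.3%, so these counts are no result about the 8 genes. Of 16 classical markers tested in A1 against Aal, 9 were called lower (*Ret*, *Id4*, *Nanos2*, *Nanos3*, *Etv5*, *Lhx1*, *T*, *Upp1* and *Tspan8*), beside 4.97% of all tested genes. The other 7 were not called, and had from 51.9% (*Neurog3*) to 184% (*Epcam*) of their Aal level in A1. Set beside the 9 called lower, the 8 genes retained 7.25% to 21.6% of their Aal level in A1, and those 9 markers 14.6% to 28.6%. In A3 the ranges were 3.44% to 28.2% and 12.8% to 32.1%. *Scn10a*, *Ifitm1* and *Tmprss5* were below the lowest marker at both stages. Both sets were taken for being low after RA, and the difference between them was not tested. In bulk samples such as these, fewer cells that hold a transcript and less of it per cell cannot be told apart.

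**Figure D2:**
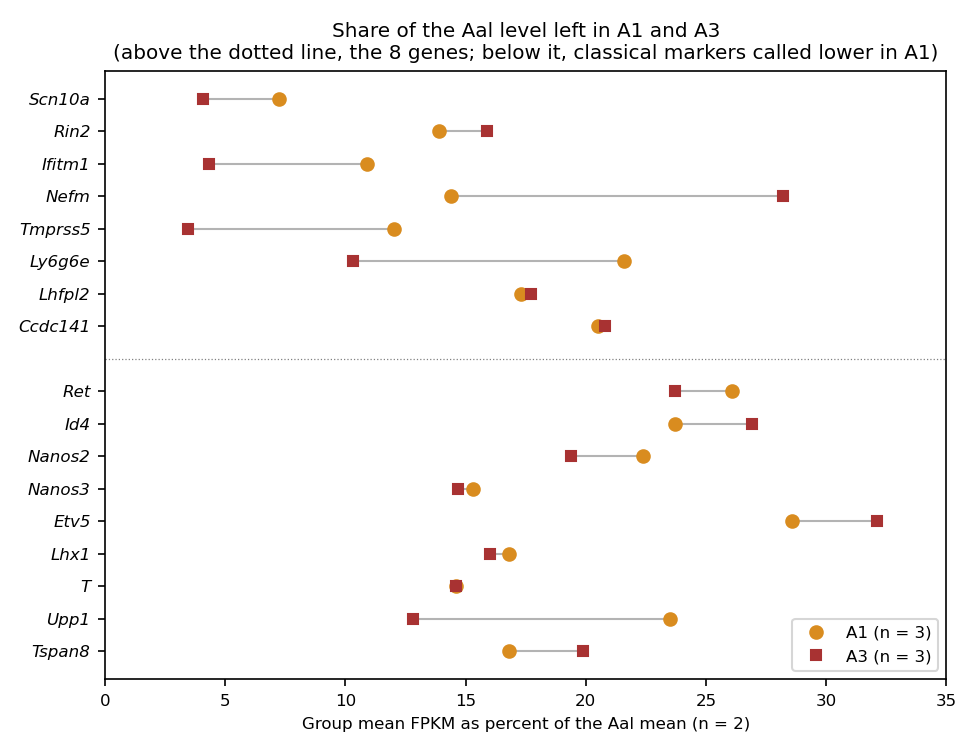
Mean FPKM in A1 (circles) and A3 (squares) as a percentage of the Aal mean, for the 8 genes above the dotted line and the 9 classical markers called lower in A1 below it. Scn10a, Ifitm1 and Tmprss5 end at 4.07%, 4.32% and 3.44% in A3, left of every classical marker, and Nefm moves right from 14.4% to 28.2%.

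The relatives of the 8 genes, which the selection did not use, did not share one direction. Of 242 genes written down in families and pathways around them, 74 were in the table. In A1 against Aal 55 were tested, of which 7 were called lower, 3 higher and 45 were not called, beside 4.97% of all tested genes called lower and 4.19% higher. Their median log2 fold change was −0.03, and that of all genes 0.03. In A3 against Aal 53 were tested, of which 13 were called lower and 8 higher, beside 9.69% and 7.87% of all tested genes, with a median of −0.04 beside 0.05. In A3 against A1, 2 of 50 were called lower and 1 higher. The relatives called lower against Aal at both stages include *Nanos3*, also one of the classical markers above, and *Ly6g6d*, which overlaps *Ly6g6e*. The 10 calls in A1 depended on having both Aal libraries: without the first 4 relatives were called lower and 0 higher, and without the second 3 and 0. In A3 the calls were 8 lower and 9 higher without the first Aal library, and 7 and 7 without the second, so the balance of lower over higher was not kept.

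Of the sodium channel family 2 genes were tested, and both were called lower at both stages. *Scn11a*, which encodes Nav1.9, another channel of pain-sensing neurons, lies 59.4 kb from *Scn10a* on the same strand. It had 2.65 and 2.78 FPKM in Aal, 0.425, 0.169 and 0.384 in A1, then 0.380, 0.414 and 0.339 in A3. Its fall was −1.49 (SE 0.14) on the log2 scale in A1 (adjusted p = 0.000326 by limma) and −1.43 (SE 0.12) in A3 (adjusted p = 3.99e-05), though it entered the test only through its Aal libraries. *Scn8a*, the Nav1.6 channel of brain and motor axons, went from 3.94 ± 0.103 FPKM (SD, n = 2) in Aal to 1.39 ± 0.0991 (n = 3) in A1, then 0.431 ± 0.184 (n = 3) in A3, and was called lower against Aal in A1 (log2 fold change −1.04) and A3 (−1.79). In A3 against Aal *Scn8a* too entered only through its Aal libraries, and its A1 call was lost without either of them. Its neighbours in the list, *Scn2a*, *Scn3a* and *Scn4a*, had too little signal to be tested, with *Scn2a* at 1.08 ± 0.343 FPKM in Aal, 0.257 ± 0.167 in A1, then 0.131 ± 0.111 in A3.

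Neurofilament chains and other neuronal genes went different ways. *Nefh*, the heavy chain, measured 18.1 ± 0.0801 FPKM (SD, n = 2) in Aal, 20.1 ± 1.18 (n = 3) in A1, then 18.0 ± 1.24 (n = 3) in A3, and had a log2 fold change of 0.14 (SE 0.08) in A1 and −0.01 (SE 0.09) in A3 against Aal. *Nefl* followed the course of *Nefm* at a far lower level, with 1.43 ± 0.0824 FPKM in Aal, 0.459 ± 0.138 in A1, then 0.982 ± 0.234 in A3. Its change of −0.74 (SE 0.14) in A1 had an adjusted p of 0.00428 by limma but stayed short of the fold threshold, and it entered that test only through its Aal libraries. In the gene positions used *Nefm* spans *Nefl* on the other strand, and the annotation and strand setting of counting are not given. Reads of this pair therefore cannot be told apart with certainty. *Ina*, the internexin chain, fell at both steps, from 14.9 ± 0.352 FPKM in Aal to 9.78 ± 0.244 in A1, then 4.25 ± 0.290 in A3. Its limma log2 fold change in A1 against Aal was −0.56 (SE 0.08, adjusted p = 0.00171), short of the fold threshold. In A3 against A1 it was −1.04 (adjusted p = 0.000839), which was called.

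In the rest of the neuronal list calls went both ways. In A1 against Aal 0 of 13 tested genes were called lower by limma (4 had an unadjusted p under 0.05, and limma voom on recovered reads called 1), and 3 were called higher: *Tubb3*, a neuronal tubulin, *Gng3*, a G protein subunit, and *Pcsk1n*, an inhibitor of a prohormone convertase. At an unadjusted p under 0.05, 5 were higher. All 3 calls were lost without either Aal library, that of *Gng3* also with no filter, with the replicate block and without any one A1 library, and *Gng3* and *Pcsk1n* entered the test only through A1. *Gng3* went from 0.604 ± 0.406 FPKM in Aal to 2.27 ± 0.574 in A1, then 12.5 ± 0.274 in A3, a rise of 2.06 on the log2 scale from A1 to A3 (adjusted p = 0.000297 by limma). *Tubb3* went from 2.67 ± 0.407 to 12.9 ± 5.94 and 13.7 ± 3.67. *Rbfox3*, which encodes the neuronal nuclear antigen NeuN, fell by 1.06 in A3 against Aal, a comparison it entered only through Aal.

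The Ly6 genes beside it in the cluster on chromosome 17 fell with *Ly6g6e*. One of them, *Ly6g6d*, overlaps *Ly6g6e* on the other strand, and reads of that pair cannot be told apart with certainty. *Ly6g6c*, 6.85 kb away, had 6.47 and 9.04 FPKM in Aal, 2.73, 2.90 and 1.88 in A1, then 1.04, 0.839 and 1.07 in A3. *Ly6g6d* had 4.65 and 3.95 FPKM in Aal, 2.01, 0.787 and 1.36 in A1, then 0.611, 0.887 and 0.655 in A3. Neither gene overlapped between Aal and the later stages, and *Ly6g6c* also separated A1 from A3. The limma log2 fold changes were −1.32 (adjusted p = 0.00158) and −1.18 (adjusted p = 0.00489) in A1, and −2.13 (adjusted p = 3.14e-05) and −1.63 (adjusted p = 4.59e-05) in A3. Of 9 tested family members 0 were called higher in A1 by limma (2 at an unadjusted p under 0.05, 1 by voom), and away from that cluster *Ly6k* and *Lynx1* rose in A3, by 2.34 and 2.15 on the log2 scale. In A3 against Aal *Ly6g6d* entered the test only through its Aal libraries and *Lynx1* only through its A3 libraries. Without either Aal library the A1 call of *Ly6g6d* was lost, and without the second Aal library that of *Ly6g6c*.

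By limma, interferon-stimulated genes were called mainly in A3. In A1 against Aal limma called 1 of 9 tested lower, beside 4.97% of all tested genes, and voom 2. At an unadjusted p under 0.05, 5 of 9 were lower there. The limma call was *Gbp3*, a guanylate-binding GTPase, with a log2 change of −1.85 (SE 0.13, adjusted p = 0.000173 by limma). It had 9.65 ± 0.401 FPKM (SD, n = 2) in Aal, 1.95 ± 0.276 (n = 3) in A1, then 2.09 ± 0.390 (n = 3) in A3. Lower in A1 but short of the fold threshold by limma were *Oasl2* (−0.77, adjusted p = 0.000896), *Ifi27* (−0.69, adjusted p = 0.00805), *Mx1* (−0.70, adjusted p = 0.00845) and *Ifnar1* (−0.54, adjusted p = 0.000861). In A3 against Aal 5 of 9 were called lower, beside 9.69% of all tested genes. They were *Oasl2* (−1.85), *Gbp3* (−1.79), *Ifi27* (−1.25), *Mx1* (−1.04) and *Stat2* (−1.04). *Mx1* entered the tests of A1 and of A3 against Aal only through its Aal libraries. *Irf7*, a transcription factor of the interferon response, was called higher (1.18). *Ifitm3*, next to *Ifitm1* at a distance of 39.8 kb and the better known of the pair in primordial germ cells, was nearly unmeasured here, at 0.190 ± 0.182 FPKM in Aal, 1.02 ± 1.09 in A1, then 0.399 ± 0.304 in A3, and was not tested. Of 4 primordial germ cell genes tested, 2 were called lower at both stages, beside 4.97% of all tested genes in A1 and 9.69% in A3. *Tfap2c*, a transcription factor needed to form these cells, fell by 1.53 in A1, then 2.12 in A3. *Nanos3*, an RNA-binding regulator, fell by 2.67 and 2.68. The other 2 were not called: *Dazl* had means of 318, 380 and 403 FPKM in Aal, A1 and A3, and *Alpl* 25.1, 27.4 and 15.5.

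For the other 4 families few members were called. *Rin3*, a paralogue of *Rin2*, rose by 1.23 in A3 against Aal, from 1.11 ± 0.306 to 3.92 ± 0.119 FPKM, and the other 6 tested Ras and Rab5 partners, *Rab5a* among them at 22.1 FPKM in Aal and 30.5 in A3, were not called. *Cldn11*, which is also a Sertoli marker, rose by 2.65 in A3, while the other 4 tested tetraspan relatives of *Lhfpl2* were not called. The only tested relative of *Tmprss5*, *St14*, the protease matriptase, was not called, at 2.24 FPKM in Aal, 3.43 in A1, then 3.61 in A3. Of 5 tested partners linked to *Ccdc141*, limma called 0 in A3 against Aal, as did voom, while 2 were lower and 2 higher at an unadjusted p under 0.05. Their median log2 fold change in A3 against Aal was 0.00. *Kif5a*, a kinesin of neurons, had 17.8 FPKM in Aal, 11.7 in A1, then 10.8 in A3.

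**Figure D3:**
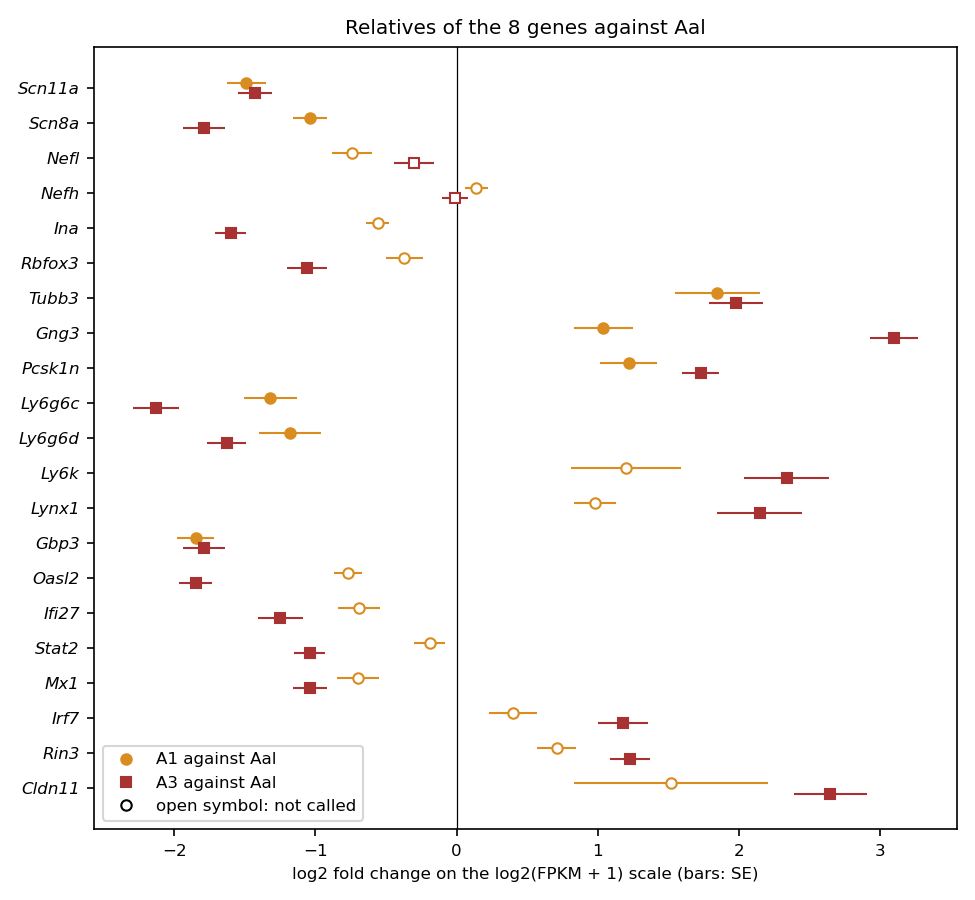
Log2 fold changes against Aal of relatives of the 8 genes in A1 (circles) and A3 (squares), with standard errors as bars. Filled symbols passed the call rule. Scn11a, Scn8a, Ly6g6c, Ly6g6d and Gbp3 lie left of 0 and are filled at both stages, whereas Nefh sits at 0 and Tubb3, Gng3 and Pcsk1n lie to the right.

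The nearest gene of the table on each side gave 16 neighbours, of which 13 were tested in A1 against Aal: 3 were called lower by limma, 0 higher and 10 were not called, beside 4.97% and 4.19% of all tested genes, with 2 higher at an unadjusted p under 0.05 and 0 by voom. In A3 against Aal 3 were again called lower and 0 higher by limma, beside 9.69% and 7.87% of all tested genes, with 2 higher at an unadjusted p under 0.05 and 1 by voom. The 3 called in A1 were *Scn11a*, *Ly6g6c* and *Slc24a3*, a sodium, potassium and calcium exchanger 143 kb from *Rin2*, which went from 5.85 ± 0.292 FPKM (SD, n = 2) to 2.36 ± 0.381 (n = 3) and 1.38 ± 0.480 (n = 3), with limma log2 fold changes of −1.03 (adjusted p = 0.00118) and −1.55 (adjusted p = 0.000195). On the other side of *Rin2*, *Naa20*, an acetyltransferase subunit, had 12.2 ± 0.336 FPKM in Aal, 14.1 ± 0.298 in A1, then 7.06 ± 0.662 in A3 and was not called. *Acvr2b*, an activin receptor beyond *Scn10a*, kept 12.8 ± 0.930, 12.4 ± 1.01 and 11.5 ± 0.613 FPKM, and *Usp28*, a ubiquitin protease beside *Tmprss5*, had 86.1 and 88.8 FPKM in Aal and means of 74.6 ± 0.0622 and 63.3 ± 7.98 at the later stages. *Ly6g6d*, which overlaps *Ly6g6e* and was called lower at both stages, is not among the 16. Neighbouring genes of the genome that are not in the table were not analysed here.

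Genes with the profile most like the 8 were sought among 3022 genes with at least 5 FPKM in Aal, by Pearson r over the 8 libraries to the mean of their standardised values. The closest were *D430019H16Rik* (r = 0.998), *Hbp1*, a transcriptional repressor (0.997), *Wdr19*, a protein of transport in cilia (0.995), *Faap20*, a DNA repair factor (0.995), *Pdzd2* (0.994), *Gcnt2*, a glycosyltransferase of surface sugars (0.994), *Ifnar1*, a chain of the type I interferon receptor (0.994), and *Fli1*, an ETS transcription factor (0.994). They were as steep as *Fli1*, from 7.44 FPKM in Aal to 1.03 in A1, then 0.659 in A3, and as shallow as *Hbp1*, from 104 to 67.7 and 66.0, since r reads the shape of a profile and not its size. The single most similar gene was *Hbp1* for *Scn10a*, *Sall1* for *Rin2*, *Fyn* for *Ifitm1*, *Narfl* for *Nefm*, *Parp8* for *Tmprss5*, *Pcmtd2* for *Ly6g6e*, *Epg5* for *Lhfpl2* and *D430019H16Rik* for *Ccdc141*. All these r, from 0.983 for *Nefm* to 0.998, describe 8 libraries in which the step from Aal to A1 dominates.

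Markers of nerve and glia differed among themselves. Of 15 Schwann cell and neuron markers, 4 were in the table, and none of these was at 0. In A1 against Aal 2 of the 4 were called lower. Their summed level was 36.0 to 40.6 FPKM in Aal, 20.2 to 21.4 in A1 and 14.2 to 18.7 in A3. *Sox10*, a transcription factor of glia, went from 17.3 ± 1.60 FPKM (SD, n = 2) to 5.04 ± 1.04 (n = 3) and 8.92 ± 2.13 (n = 3), with a log2 fold change of −1.61 in A1 (adjusted p = 0.000337 by limma), and *Mbp*, myelin basic protein, from 8.03 ± 0.788 to 2.26 ± 0.255 and 1.25 ± 0.193, with −1.47 (adjusted p = 0.000287). *Erbb3*, a neuregulin receptor, was not called, with 10.5 and 11.5 FPKM in Aal and means of 12.3 ± 1.48 and 5.81 ± 0.462 at the later stages, and *Rbfox3* was not called in A1 (−0.37). Their part in the levels of the 8 genes was not tested.

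The summed level of 6 of 15 endothelial markers was 9.03 to 10.5 FPKM in Aal, 7.24 to 9.83 in A1 and 3.90 to 4.91 in A3, and *Cdh5*, a junction protein of vessels, fell by 1.44 in A3 against Aal. *Kdr*, a receptor of vascular growth factor, had 1.96 ± 0.236 FPKM (SD, n = 2) in Aal, 0.560 ± 0.0807 (n = 3) in A1, then 0.562 ± 0.0562 (n = 3) in A3, a log2 change of −0.92 in A1 (adjusted p = 0.00138 by limma) that stayed short of the fold threshold. *Kdr* entered that test only through its Aal libraries. Of 4 endothelial markers tested against Aal, limma called 0 lower in A1, beside 4.97% of all tested genes, and voom 1. In A3 limma called 1 lower, *Cdh5*, beside 9.69%. The other markers did not fall in A1. Their means in Aal, A1 and A3 were 1.26, 2.47 and 1.22 FPKM for *Eng* and 1.13, 1.31 and 0.670 for *Tek*. *Tie1* (0.0936, 0.286 and 0.450) and *Esam* (0.154, 0.354 and 0.340) were too low to be tested. The sum of 12 of 20 Sertoli markers was higher in all A3 libraries, 215 to 400 FPKM, than in Aal, with 10 of 12 called higher in A3 against Aal, beside 7.87% of all tested genes. Among the called, *Kitl*, *Inhbb* and *Fshr* were under 1 FPKM in Aal and entered that test only through their A3 libraries. *Dhh* was not called, and *Trf*, transferrin, was called lower at both stages, at 12.2 ± 1.62 FPKM in Aal, 1.98 ± 0.776 in A1, then 3.28 ± 0.201 in A3. The sum of 4 of 9 Leydig markers was 1.70 to 2.37 FPKM in Aal, 1.05 to 10.3 in A1, then 2.51 to 3.67 in A3, and that of 5 of 13 peritubular myoid markers was 3.88 to 6.96, 5.39 to 37.9 and 4.82 to 6.60. The sum of 5 of 15 macrophage and white blood cell markers was 3.13 to 6.44, 2.61 to 15.1 and 1.79 to 3.32. The third A1 library was the highest in all 3 of these lists. *Fcer1g*, a chain of receptors for antibodies in white blood cells, was the only macrophage and white blood cell marker tested in A3 against Aal. It fell by 1.06 and was called by limma, whereas voom called 0. Its Aal libraries were far apart, at 2.39 and 5.81 FPKM. The other markers of this list were too low to be tested there. From Aal to A3 the means of *Lyz2* (0.308 to 0.556 FPKM), *C1qb* (0.152 to 0.391) and *Laptm5* (0.0844 to 0.104) rose, and that of *Csf1r* (0.143 to 0.0691) fell. The part of these cell types in the levels of the 8 genes was not tested. None of 7 red blood cell markers was in the table.

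**Figure D4:**
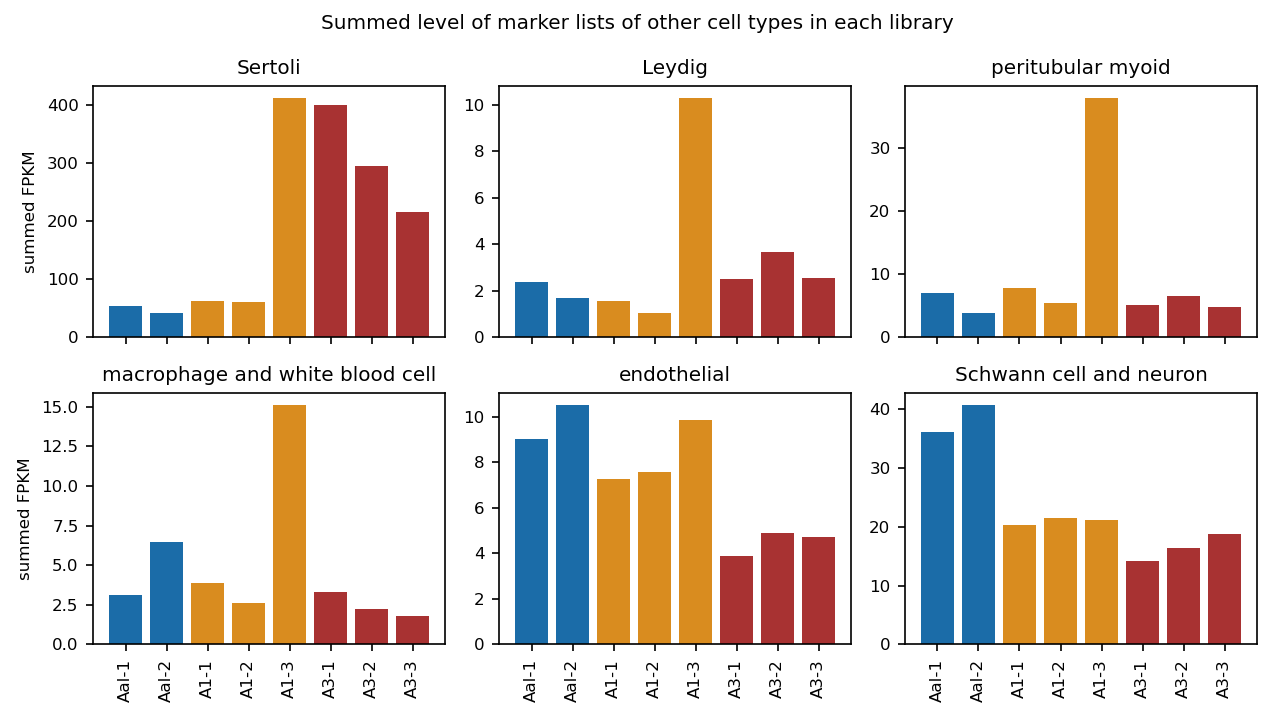
Summed FPKM of marker lists of other cell types in each library, as bars from 0 with a separate axis for each list. Sertoli markers are high in the third A1 library and in all A3 libraries, whereas Schwann cell and neuron markers are highest in both Aal libraries, at 36.0 and 40.6 FPKM.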

How the data were processed

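Bulk RNA-seq libraries (TruSeq Stranded mRNA, single-end 75 bp reads) were analysed from FPKM values deposited by the authors, who trimmed reads with cutadapt (v1.9), removed reads of low quality, mapped the rest to mm9 with STAR (v2.5.2b) and counted them per gene with featureCounts. The annotation, the strand setting and how FPKM was derived are not given in the sources used here. Groups came from sample titles. Each gene's values were whole multiples of 1 read, within 0.02 reads for 100% of genes, which gave reads and library totals. The table's 5736 genes hold 34.0% to 34.4% of the reads of each library, so genes outside it were not analysed here. log2(FPKM + 1) was fitted with limma 3.58.1 (R 4.3.3; eBayes with a mean-variance trend) on the libraries of each pair of groups, for genes with at least 1 FPKM in 2 of them, two-sided. Calls needed an adjusted p (Benjamini-Hochberg) up to 0.01 together with a log2 fold change beyond 1 in size. The 8 genes, the lists and the tests were chosen with earlier results of these data known. Named are the 8 genes, the relatives called against Aal (up to 5 a list), family members and nearest genes beside the 8, and the 8 most alike genes, and others were named after their values were seen. The scripts were tested on simulated data. Gene positions are GENCODE M1 on mm9 and promoters are RefSeq on GRCm38.p6. With groups of 2 or 3 libraries no test for outlying libraries was made. Alternatives were another pseudocount, no filter, another threshold, median-ratio scaling, a fit on all libraries, limma voom on recovered reads, a replicate block and leaving out each library.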

Additional observations from a re-analysis of the deposited data

How the results depend on the processing

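The values of the 8 genes kept their sign in A1 and A3 against Aal under every alternative in which they were fitted. The genes were chosen for that fall in these libraries, so the kept sign is no support for it. *Scn10a*, *Ifitm1* and *Tmprss5* entered A3 against Aal only through Aal, so leaving out either Aal library left them with no fit there. In A3 against A1 the sign of a pair of genes that stayed level was not fixed: leaving out single libraries gave log2 fold changes of −0.077 to 0.119 for *Lhfpl2* and −0.032 to 0.099 for *Ccdc141*. The number of genes called in A1 against Aal, 424, became 670 with a pseudocount of 0.1 and 731 with limma voom on the recovered reads, and ran from 179 (without the second Aal library) to 475 without single libraries. Relatives called there, 10, became 17 with voom and 3 to 11 without single libraries. In A3 against A1 the 69 genes called became 152 with a pseudocount of 0.1 and 199 with voom, and 26 to 111 without single libraries. Relatives called in A3 against A1, 3, became 5 with voom. In A3 against Aal 823 genes were called, and 597 to 878 without single libraries. The causes were not tested.

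Libraries of different groups share replicate numbers, but same-numbered libraries did not deviate together (correlations of deviations from group means of −0.323 to 0.0451), so the numbers were not taken as pairs. With the number as a replicate block, 444 genes were called in A1 against Aal, 39 in A3 against A1 and 800 in A3 against Aal, with 11, 3 and 21 relatives among them.

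With 2 Aal libraries, leaving out either makes a fit in which the lone library is assumed to vary like the other group. In the later stages *Scn10a*, *Ifitm1* and *Tmprss5* rest on 7 to 144 reads a library, so their folds depend on the pseudocount: with 0.1 the log2 fold changes in A3 against Aal were −4.36, −4.34 and −4.49.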
